A study of Mus musculus with 9 samples.

Results

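Genes of the lysosome were compared between livers of mice on a high-fat diet (HFD) and livers of control mice. The lysosome is the acid compartment in which a cell breaks down proteins, glycans and lipids. A proton pump of its membrane, the V-ATPase, keeps it acid, and the soluble enzymes work at that acidity. Cholesterol freed inside it leaves through NPC2 and NPC1, and the transcription factors TFEB and TFE3 drive many of its genes through a short DNA element with the core CACGTG. In liver, hepatocytes use it to digest lipoprotein cargo and their own organelles, and Kupffer cells, the resident macrophages, are rich in it.

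The members were a list of 49 genes, named by function, and a member entered where at least 1 probe set was paired with its symbol alone. That held for 48 genes of the 17514 tested, and Cd63 is not analysed here. By role they were 12 cathepsins, 2 other proteases, 11 glycan hydrolases, 9 genes of lipid breakdown and sterol export, 2 acid phosphatases, 5 genes of the proton pump, 5 measured membrane proteins and 2 transcription factors.

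Liver RNA of c57Bl/6 mice was hybridised to Affymetrix arrays, 5 from the HFD group (Harlan-Teklad diet, 21% fat, 42% of calories from fat) and 4 from the control group, with chow named as the diet until the study. Sex, age and time on the diet are not given. Whether the arrays came from separate animals is not stated either, and the p-values then speak only of the spread among these arrays, which may be technical. Values are on the log2 scale and centred per probe set, which allows a gene to be compared across arrays but not one gene's level with another's, and the number of arrays limits the precision. For the same reason the hepatocyte markers Alb, Ttr and Apoa1, though measured, do not show how much of the tissue they make up. In bulk tissue, fewer cells of a type and less RNA per cell cannot be told apart. HFD array 5 had the widest spread of values over all genes (SD 0.398, against 0.245 to 0.313 on the other arrays). Each difference (log2, HFD minus control) is followed by its standard error from limma, and a gene passed at a Benjamini-Hochberg adjusted p under 0.05 over all genes.

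The upstream sequences of these genes were searched for the core element of TFEB and TFE3. RefSeq (GRCm38.p6) promoters matched 42 of the 49 listed genes, with 50 promoters. In the 250 bases before the start site, CACGTG, which reads the same on both strands, occurred in 13 of the 50 promoters (26%), against 1978 of all 32851 promoters of the table (6.02%). Those 13 genes were Arsa, Atp6v1a, Ctsa, Ctsd, Ctsf, Ctsl, Gaa, Gla, Glb1, Lamp1, Lgmn, Mcoln1 and Naglu. A longer motif of 10 bases with CACGTG at its centre occurred in 0 of the 50 promoters, against 79 of all 32851 (0.24%). With so low a share over all promoters, a count of 0 in 50 does not set these promoters apart. None of the 13 genes with CACGTG passed the test between diets. Of all genes 5.24% did, so that a count of 0 does not set these 13 apart. Their median difference was 0.08 (-1.24 to 0.75), and that of the 28 measured genes whose promoters lacked the letters was -0.04 (-1.64 to 0.86), with 1 of these higher and 2 lower past the threshold. Asah1, which also passed, was among the 7 listed genes without a RefSeq promoter here. The promoter of Lamp1, which held 4 copies, is shown beside those of 3 genes that passed the test and held none, Ctss, Idua and Arsb. Each is given 5′ to 3′ on the strand of the gene, from 250 bases before the start to the last base before it, with CACGTG in capitals. Lamp1 lies at chr8:13158911-13159160 (plus strand), Ctss at chr3:95526536-95526785 (plus strand), Idua at chr5:108660081-108660330 (plus strand) and Arsb at chr13:93771429-93771678 (plus strand).
Lamp1: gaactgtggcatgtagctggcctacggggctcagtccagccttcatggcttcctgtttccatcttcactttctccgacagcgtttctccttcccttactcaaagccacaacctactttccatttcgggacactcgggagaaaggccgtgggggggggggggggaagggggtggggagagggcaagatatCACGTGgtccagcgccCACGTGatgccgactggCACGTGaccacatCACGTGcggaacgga
Ctss: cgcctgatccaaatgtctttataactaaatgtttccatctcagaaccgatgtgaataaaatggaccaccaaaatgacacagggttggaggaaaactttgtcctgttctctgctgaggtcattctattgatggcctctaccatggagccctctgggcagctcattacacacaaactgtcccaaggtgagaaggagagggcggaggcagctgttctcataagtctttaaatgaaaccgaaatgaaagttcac
Idua: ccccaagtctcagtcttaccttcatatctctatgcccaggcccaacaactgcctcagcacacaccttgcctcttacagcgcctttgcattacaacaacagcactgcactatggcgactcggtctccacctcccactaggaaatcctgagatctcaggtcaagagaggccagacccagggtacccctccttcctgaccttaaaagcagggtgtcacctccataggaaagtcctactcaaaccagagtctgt
Arsb: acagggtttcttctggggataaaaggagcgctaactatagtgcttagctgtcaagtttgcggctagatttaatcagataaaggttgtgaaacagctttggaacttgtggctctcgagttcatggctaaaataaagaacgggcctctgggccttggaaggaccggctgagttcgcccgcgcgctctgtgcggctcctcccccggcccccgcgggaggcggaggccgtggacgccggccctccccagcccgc
A match describes the letters only and is no measure of binding.

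Few of the 48 lysosomal genes passed the test between diets, and those that did moved in both directions. Asah1, Ctss and Idua fell and Arsb rose in the HFD group, 4 of 48 genes (8.33%), against 5.24% of all genes tested. By direction, 3.37% of all genes were called higher and 1.87% lower. The median difference was -0.04 over the 48 genes and -0.02 over all genes, and that of the members took either sign, between -0.06 and 0.08, over the alternatives. Of the members 25 lay below 0 and 23 above, against 53.8% of all genes below. The median size of a member's difference, whatever its sign, was 0.22, against 0.12 over all genes. An unadjusted p under 0.05 was reached by 9 members with higher and 9 with lower values, together 37.5% of the members, against 19.1% of all genes (10.3% higher and 8.78% lower). In 8 members (16.7%) no HFD value fell within the control range or the reverse, 5 with HFD higher and 3 with HFD lower, against 9.82% of all genes (5.62% higher and 4.20% lower). The most variable probe set stood for a gene, which favours larger sizes in genes with several. These were 32 of the 48 members, against 8404 of all 17514 genes. Neither this nor the level of signal was matched in the comparisons with all genes.

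**Figure D1:**
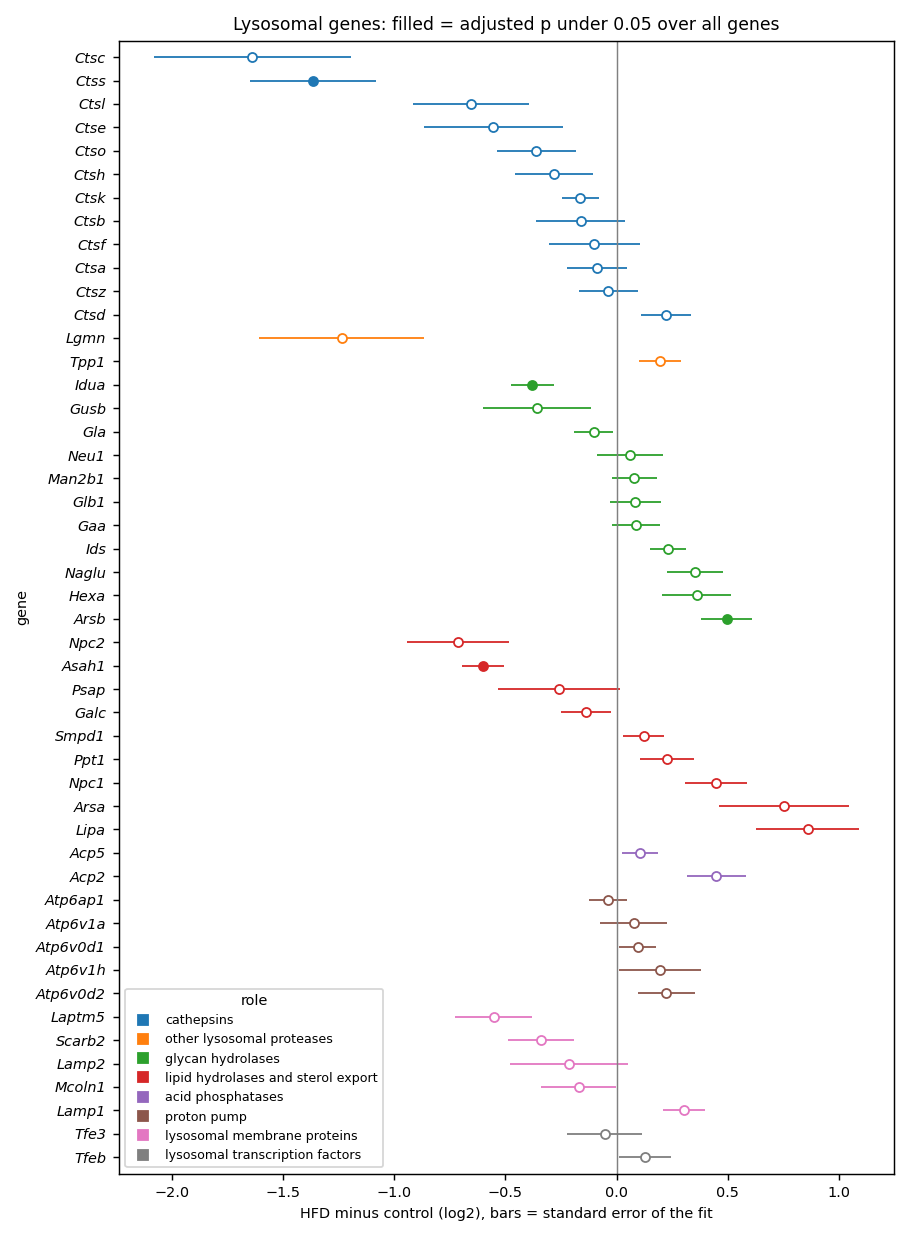
Difference between HFD and control (log2, x axis) of each of the 48 lysosomal genes (y axis, grouped and coloured by role), with the standard error of the fit as bars and filled points where the adjusted p was under 0.05. Ctsc, Ctss and Lgmn lie furthest to the left, at -1.64, -1.36 and -1.24, and Lipa furthest to the right, at 0.86.

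The cathepsins, the main proteases of the lysosome, lay below 0 in 11 of 12 genes, and 1 of the 12 passed, with a median difference of -0.22. Over all genes 53.8% lay below 0 and 5.24% passed. Another probe set lay above 0 in Ctsa, Ctsb, Ctse, Ctsf, Ctso and Ctsz. With probe sets averaged, the differences of Ctsa, Ctsb, Ctsf, Ctso and Ctsz were between -0.044 and -0.0015. Ctss, a cysteine protease with which antigen-presenting cells trim the invariant chain of MHC class II, stood at -0.34, -0.88, -0.69, 0.0032 and -1.41 on HFD arrays 1 to 5, against 0.80, 1.27, 0.55 and 0.18 on control arrays 1 to 4. Every HFD array was below every control array, HFD array 5 being lowest and HFD array 4 nearest to the controls. The mean was -0.67 ± 0.54 (SD, n = 5) in HFD and 0.70 ± 0.46 (SD, n = 4) in control, and Ctss fell by 1.36 ± 0.28 (2.57-fold, adjusted p = 0.0225 by limma). The call ended without control replicate 1, 2 or 3, without HFD replicate 3, and when HFD replicate 5 and control replicate 1 were both left out (highest adjusted p = 0.0738), with differences between -1.54 and -1.14 over all 17 alternatives.

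Ctsc, a dipeptidyl peptidase that activates the granule proteases of immune cells, had the largest difference of the 48 genes and did not pass. Its values were -0.63, -0.55, -0.71, 0.32 and -2.18 in HFD, against 1.26, 1.44, 0.88 and -0.02 in control. HFD array 4 reached above control array 4, so that the groups overlapped, and HFD array 5 lay far below the other HFD arrays. The difference was -1.64 ± 0.44 (adjusted p = 0.0618), and the 2 other probe sets of the gene gave -0.13 and -0.26. Averaging the 3 brought it to -0.68. Ctsc passed without HFD replicate 4, under array weights, after a further quantile normalization and with the least variable genes left out (lowest adjusted p = 0.0267).

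Ctsl, a broad cysteine endopeptidase, was at 0.13, -0.78, -0.71, -0.39 and 0.01 in HFD, against 0.12, -0.01, 1.09 and 0.02 in control. Control array 3 stood alone at 1.09, and the groups otherwise overlapped. The difference of -0.66 ± 0.26 (adjusted p = 0.201) became -0.39 without that array. Ctsd, the aspartic protease of the lysosome, was the only cathepsin above 0, at 0.22 ± 0.11. Of the remaining cathepsins, Ctse (-0.56 ± 0.31), another aspartic protease, and Ctsh (-0.28 ± 0.18), an aminopeptidase, had their lowest values on HFD arrays 3 and 5. Ctsk (-0.16 ± 0.08), known for collagen breakdown by osteoclasts, Ctsb (-0.16 ± 0.20), Ctsf (-0.10 ± 0.21), Ctsa (-0.09 ± 0.14), which shields beta-galactosidase and neuraminidase, and Ctsz (-0.04 ± 0.13) were closer to 0. Ctso, a cysteine protease, gave opposite answers by probe set. The one that stood for the gene had a difference of -0.36 ± 0.18 (adjusted p = 0.315), and the other was higher in HFD at 0.36 ± 0.07 (adjusted p = 0.0212 over all probe sets).

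Outside the cathepsins, the list held a pair of proteases. Lgmn, the asparaginyl endopeptidase that also processes cathepsins, had values of -0.11, -0.86, -0.73, 0.58 and -1.44 in HFD, against 1.09, 1.16, 0.55 and 0.11 in control. HFD array 4 lay within the control range and the other HFD arrays below all controls. The difference of -1.24 ± 0.37 did not pass (adjusted p = 0.0880), and it did without HFD replicate 4 (-1.51, adjusted p = 0.0210). Tpp1, a tripeptidyl peptidase, stood at 0.09, -0.0017, 0.18, 0.0017 and 0.29 in HFD, against -0.03, -0.21, 0.04 and -0.13 in control. Its groups overlapped, at a difference of 0.20 ± 0.09 (adjusted p = 0.293).

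Markers of Kupffer cells were measured on the same arrays. Of 18 measured Kupffer cell and macrophage markers, which include none of the 48 lysosomal genes, 12 fell and none rose. Over all genes 1.87% were called lower and 3.37% higher. Among the markers that fell were Timd4 (-1.16 ± 0.20), a receptor of resident Kupffer cells for dying cells, Folr2 (-1.25 ± 0.22), a folate receptor, and Cd163 (-1.92 ± 0.35), the haemoglobin scavenger receptor. These 3 passed in each of 17 alternatives (highest adjusted p = 0.0439 by limma), but the count of 12 became 3 to 15 with 1 array left out, and was 4, 3 and 5 without control replicates 1, 2 and 3. Leaving out HFD replicate 2, 3 or 5 gave 7, 4 and 11 in that order. It was 4 with HFD replicate 5 and control replicate 1 both left out. The mean over the 18 markers ran from -1.21 to 0.14 on HFD arrays and from 0.12 to 1.14 on control arrays, and their sum from -21.9 to 2.44, against 2.22 to 20.4. The highest HFD array in this mean was replicate 4 and the lowest replicate 5, and the lowest control array was replicate 4. The same 3 arrays stood in these places in 13 of the 18 markers (72.2%). Since the places were read from the mean of these markers, that share was favoured in advance. The same places held in 857 of all 17514 genes (4.89%) and in 12 of the 48 lysosomal genes (25%). The 12 were Ctsb, Ctsc, Ctsf, Ctss, Lgmn, Npc2, Asah1, Psap and Scarb2, with differences below 0, and Ppt1, Acp5 and Atp6v1a, with differences above 0. The order was not particular to Kupffer cells or to the listed genes. The mean over all genes and the mean over 12 sinusoidal endothelial markers had the same arrays in these places. So did 7 of 13 V-ATPase genes outside the list (53.8%) and 6 of 23 other lysosomal hydrolases and activators (26.1%). The counts were 5 of 20 in other lysosomal membrane proteins (25%) and 4 of 16 in autophagy genes (25%). They were 1 of 18 in enzyme sorting (5.56%) and 0 of 15 in nutrient sensing. Values relative to a baseline cannot show whether a marker was absent. The part of these cells in the lower values of the lysosomal genes was not tested.

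**Figure D2:**
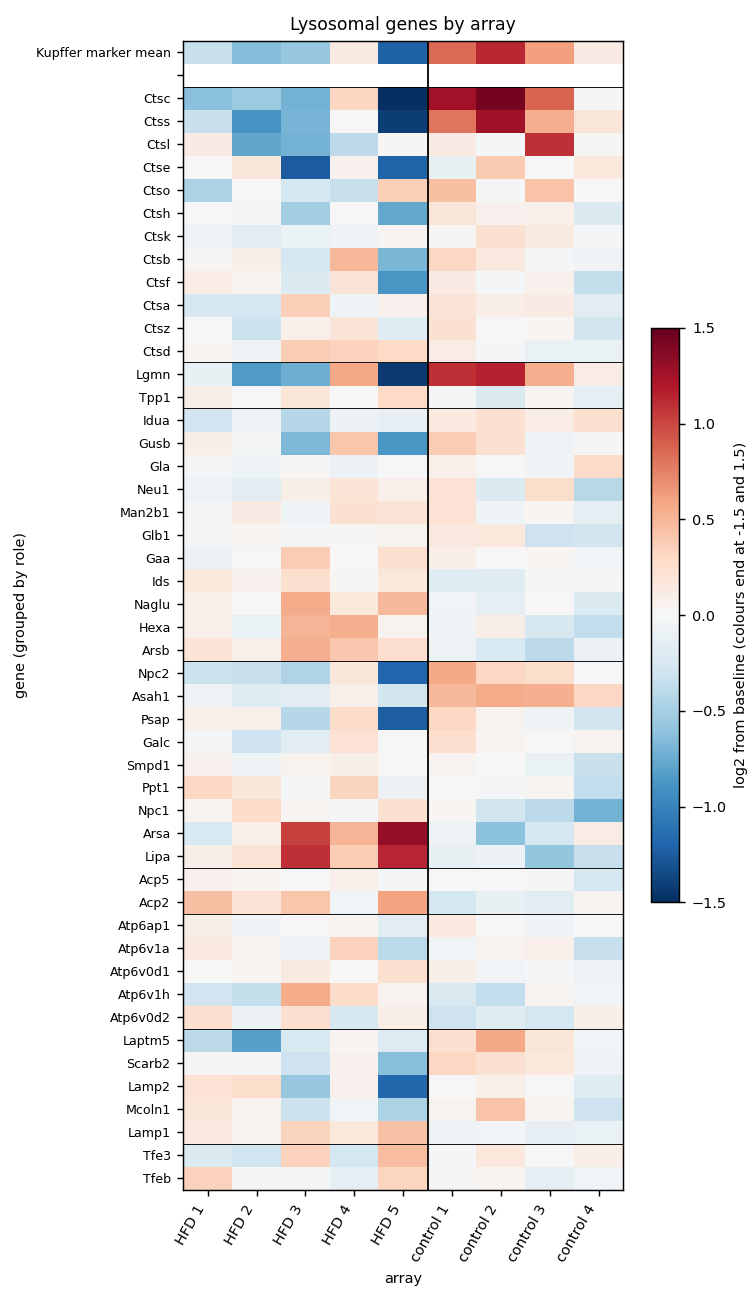
Values of the 48 lysosomal genes (rows, grouped by role) on the 5 HFD and 4 control arrays (columns), on the log2 scale and centred per probe set, with colours ending at -1.5 and 1.5. The top row is the mean of the Kupffer cell markers (-1.21 on HFD array 5 and 1.14 on control array 2), and the rows of Ctsc, Ctss and Lgmn have the same HFD arrays at their extremes, replicates 4 and 5.

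The glycan hydrolases lay above 0 in 8 of 11 genes, with a median difference of 0.08, and 1 rose and 1 fell. Over all genes 53.8% lay below 0 and 5.24% passed. With probe sets averaged, Gaa was at -0.013 and Ids at 0.0095. Arsb, the sulfatase that removes sulfate from dermatan and chondroitin chains, stood at 0.20, 0.08, 0.55, 0.40 and 0.26 on HFD arrays, against -0.08, -0.23, -0.39 and -0.09 on control arrays. No array of one group reached the other. Arsb rose by 0.49 ± 0.11 (1.41-fold, adjusted p = 0.0325), and its other probe sets gave 0.36 and 0.10. The call ended without any 1 control array, without HFD replicate 3 or 4, and when HFD replicate 5 and control replicate 1 were both left out (highest adjusted p = 0.100), with differences between 0.32 and 0.55 over the 17 alternatives.

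Idua, the iduronidase that works on the same dermatan chains and on heparan sulfate, moved against Arsb. Its values were -0.29, -0.06, -0.43, -0.08 and -0.12 in HFD, against 0.15, 0.23, 0.11 and 0.24 in control. All 5 HFD arrays were below 0 and all 4 control arrays above. Idua fell by 0.38 ± 0.10 (1.30-fold, adjusted p = 0.0481), close to the threshold, and the call ended in 11 of 17 alternatives, among them the average with its other probe set (-0.22) and the loss of any 1 array other than HFD replicate 4 (highest adjusted p = 0.140).

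Naglu and Ids, enzymes of heparan sulfate breakdown, were higher on all 5 HFD arrays than on any control array but did not pass. Naglu stood at 0.08, 0.01, 0.56, 0.16 and 0.48 in HFD, against -0.04, -0.14, -0.01 and -0.20 in control, a difference of 0.35 ± 0.13 (adjusted p = 0.147). Ids stood at 0.16, 0.06, 0.24, 0.02 and 0.16 in HFD, against -0.18, -0.18, -0.02 and -0.03 in control, a difference of 0.23 ± 0.08 (adjusted p = 0.144). The gap between the groups was narrow in both, and the 4 other probe sets of Ids gave differences between -0.15 and 0.03. Hexa, a subunit of beta-hexosaminidase, had a difference of 0.36 ± 0.16. Gusb, the beta-glucuronidase, was at -0.36 ± 0.24 with its lowest values on HFD arrays 3 and 5. The glycogen-degrading Gaa (0.09 ± 0.11), the beta-galactosidase Glb1 (0.08 ± 0.11), the alpha-mannosidase Man2b1 (0.08 ± 0.10), the neuraminidase Neu1 (0.06 ± 0.15) and the alpha-galactosidase Gla (-0.10 ± 0.09) lay near 0.

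Genes of lipid breakdown and sterol export split, 5 of 9 above 0 and 4 below, and 1 fell. The shares over all genes were 53.8% below 0 and 5.24% past the threshold. Asah1, the acid ceramidase that frees sphingosine from ceramide, stood at -0.07, -0.20, -0.16, 0.07 and -0.27 on HFD arrays, against 0.49, 0.56, 0.54 and 0.31 on control arrays. The groups were apart, the highest HFD array lying below the lowest control array. Its means were -0.13 ± 0.13 (SD, n = 5) in HFD and 0.48 ± 0.11 (SD, n = 4) in control, and Asah1 fell by 0.60 ± 0.09 (1.52-fold, adjusted p = 0.00653). It was lower on every HFD array, its call held in all 17 alternatives (highest adjusted p = 0.0311), and it was measured by 1 probe set.

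The 3 genes that release and export lysosomal cholesterol had differences of both signs, and none of them passed. Lipa, the acid lipase that splits cholesteryl esters and triglycerides taken up with lipoproteins, stood at 0.09, 0.20, 1.09, 0.38 and 1.14 in HFD, against -0.11, -0.09, -0.58 and -0.34 in control. HFD arrays 3 and 5 were high, and the other HFD arrays lay nearer to the controls, with no overlap. The difference of 0.86 ± 0.23 did not pass (adjusted p = 0.0619) and differed between probe sets, the other 2 giving 0.39 and -0.07. Lipa passed after a further quantile normalization, with the least variable genes left out and without HFD replicate 1 (lowest adjusted p = 0.0379).

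Npc1, the membrane protein through which cholesterol leaves the lysosome, stood at 0.06, 0.28, 0.03, -0.03 and 0.23 in HFD, against 0.03, -0.28, -0.40 and -0.70 in control. The HFD arrays lay close together while the controls spread downwards to control array 4, and control array 1 lay among the HFD arrays. The difference was 0.45 ± 0.14 (adjusted p = 0.0976), and it passed without control replicate 1 (0.57, adjusted p = 0.0370). Npc2, the soluble protein that hands cholesterol to NPC1, was named in addition to the rule after its values were seen. It stood at -0.32, -0.35, -0.45, 0.17 and -1.19 in HFD, against 0.57, 0.31, 0.26 and -0.01 in control. This was the opposite sign to Npc1, with a difference of -0.71 ± 0.23 (adjusted p = 0.111) that passed without HFD replicate 4 (-0.86, adjusted p = 0.0389). Its 3 other probe sets gave -0.30, -0.12 and -0.11. The difference between Npc1 and Npc2 was not tested.

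**Figure D3:**
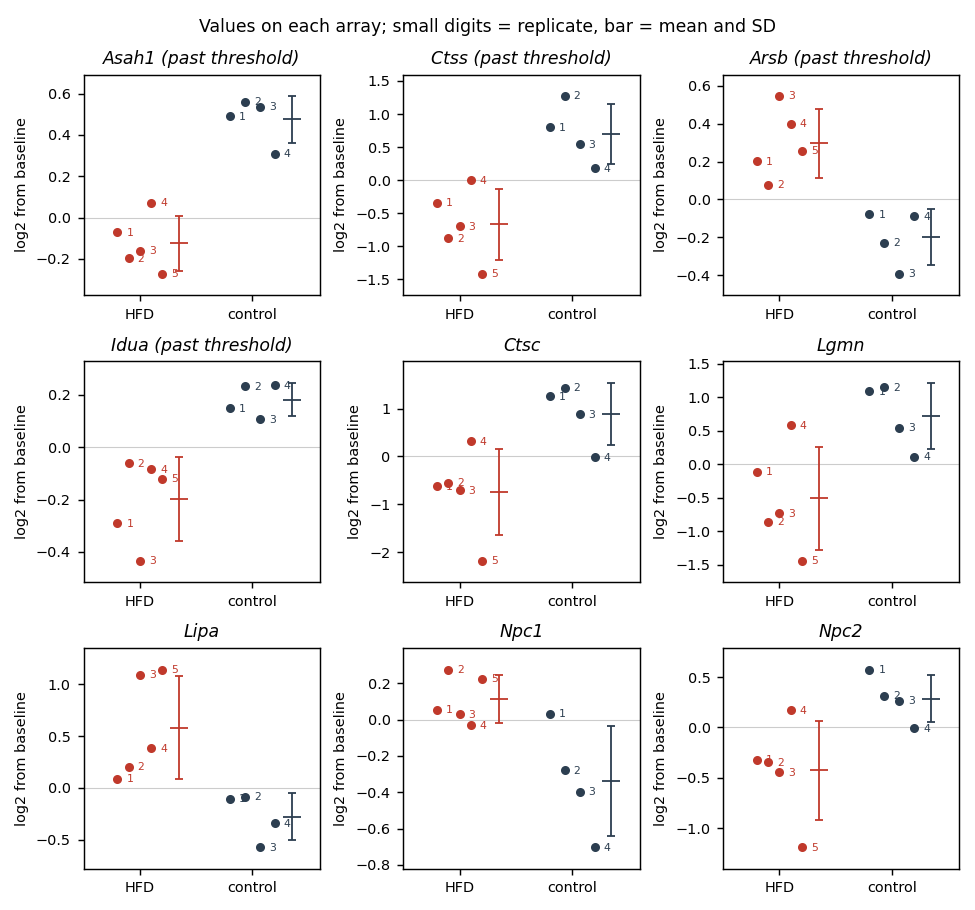
Values on each array (log2, centred per probe set, y axis) of 9 lysosomal genes in HFD (left, 5 points) and control (right, 4 points), with replicate numbers beside the points and bars for mean and SD. In Asah1, Ctss, Arsb, Idua and Lipa the groups do not overlap, and in Ctsc, Lgmn, Npc1 and Npc2 they do.

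Arsa, the sulfatide sulfatase, shared the wide HFD spread of Lipa, with HFD arrays 3 and 5 above 1 and a difference of 0.75 ± 0.29 (adjusted p = 0.191). The acid sphingomyelinase Smpd1 (0.12 ± 0.09), the palmitoyl thioesterase Ppt1 (0.23 ± 0.12) and the galactosylceramidase Galc (-0.14 ± 0.11) did not pass. Psap, the precursor of the saposins that help these enzymes reach their lipids, was at -0.26 ± 0.27 and stood at -1.24 on HFD array 5, while its other HFD values lay between -0.43 and 0.27. Of the acid phosphatases, Acp2 stood at 0.45, 0.20, 0.42, -0.04 and 0.61 in HFD, against -0.26, -0.11, -0.15 and 0.04 in control. HFD array 4 was the only HFD array inside the control range. The difference of 0.45 ± 0.13 (adjusted p = 0.0814) passed without HFD replicate 4 (0.54, adjusted p = 0.0225), yet the 2 other probe sets of Acp2 gave -0.26 and -0.11. Acp5, the tartrate-resistant phosphatase of macrophages and osteoclasts, stood at 0.07, 0.03, 0.01, 0.07 and -0.02 in HFD, against -0.0037, 0.0037, -0.03 and -0.26 in control. Apart from control array 4 the groups differed little, by 0.11 ± 0.08 in all (adjusted p = 0.542).

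None of the 5 listed genes of the proton pump passed, at 4 of 5 above 0 and a median difference of 0.10. Of the 13 further subunit genes outside the list 9 lay below 0 and 4 above, with a median difference of -0.17. Over all genes 53.8% lay below 0 and 5.24% passed. Atp6v0d2, a membrane-sector subunit used by osteoclasts and macrophages, stood at 0.25, -0.09, 0.25, -0.24 and 0.10 in HFD, against -0.31, -0.18, -0.26 and 0.09 in control. Atp6v0d1, its counterpart in most cells, stood at 0.0031, 0.04, 0.14, -0.0031 and 0.24 in HFD, against 0.09, -0.05, -0.02 and -0.08 in control. The groups overlapped in both, at differences of 0.22 ± 0.13 (adjusted p = 0.393) and 0.10 ± 0.08 (adjusted p = 0.594). The 95% intervals of the difference were -0.06 to 0.51 for Atp6v0d2, -0.09 to 0.28 for Atp6v0d1, -0.25 to 0.40 for the catalytic subunit gene Atp6v1a, -0.21 to 0.60 for the regulatory Atp6v1h and -0.23 to 0.15 for the accessory Atp6ap1. These intervals do not show that the pump genes were alike between diets.

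Membrane proteins gave no call, against 5.24% of all genes called. Of the 5 measured 1 lay above 0, with a median difference of -0.21, and over all genes 53.8% lay below 0. Lamp1, a main glycoprotein of the lysosomal membrane, was the one above. It stood at 0.14, 0.04, 0.33, 0.16 and 0.44 in HFD, against -0.05, -0.04, -0.12 and -0.11 in control. All HFD arrays were above all controls, by a difference of 0.30 ± 0.09 (adjusted p = 0.103). Lamp2, its relative with a part in autophagy, was at -0.21 ± 0.27, with values between 0.06 and 0.26 on HFD arrays 1, 2 and 4 and -0.57 and -1.17 on HFD arrays 3 and 5. Laptm5, a lysosomal membrane protein of blood-derived cells, stood at -0.39, -0.82, -0.23, 0.04 and -0.19 in HFD, against 0.24, 0.56, 0.18 and -0.04 in control. HFD array 4 reached into the controls, and the difference of -0.55 ± 0.17 (adjusted p = 0.101) passed under array weights (-0.66, adjusted p = 0.0444). Of its 5 probe sets 4 were below 0 and 1 above, at 0.25. Scarb2, the receptor that carries glucocerebrosidase to lysosomes, had a difference of -0.34 ± 0.15, and Mcoln1, a calcium channel, of -0.17 ± 0.17.

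The transcription factors of lysosomal genes gave no call. Tfeb stood at 0.34, -0.01, -0.03, -0.14 and 0.33 in HFD, against 0.01, 0.04, -0.15 and -0.04 in control. Tfe3 stood at -0.21, -0.30, 0.35, -0.27 and 0.47 in HFD, against -0.02, 0.16, -0.00013 and 0.10 in control. The groups overlapped in both genes, and the highest values were on HFD arrays 1 and 5 in Tfeb and on 3 and 5 in Tfe3, with differences of 0.13 ± 0.12 (adjusted p = 0.611) and -0.05 ± 0.17 (adjusted p = 0.908).

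Probe sets of a gene often disagreed. The 48 genes had 104 probe sets, 16 genes with 1 and 32 with several, and the sign was shared by every probe set in 14 of the 32. Since the most variable probe set stood for a gene, the rule favours the larger sizes. Among the 4 genes that passed, Asah1 and Ctss rested on 1 probe set each, those of Arsb all lay above 0, and those of Idua both below.

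**Figure D4:**
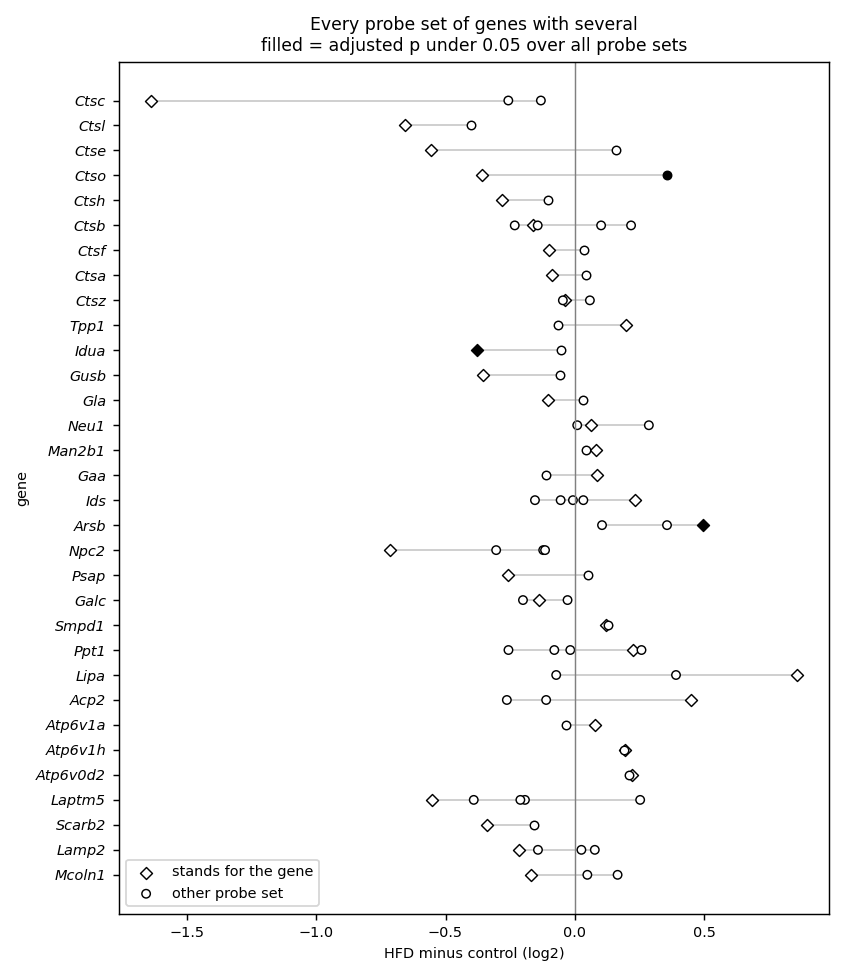
Difference between HFD and control (log2, x axis) for every probe set of the 32 lysosomal genes with several (y axis), diamonds for the probe set that stood for the gene and circles for the others, filled where the adjusted p over all probe sets was under 0.05. The probe sets of Ctsc run from -1.64 to -0.13, those of Lipa from -0.07 to 0.86, and those of Ctso lie on both sides of 0.

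Of 105 measured lysosomal genes outside the list 8 passed (7.62%, against 5.24% of all genes), 6 lower and 2 higher. With 1 array left out the counts were 4 to 8 lower and 1 to 3 higher, with 1 higher without any 1 control array or HFD replicate 2 or 3. Among 23 other hydrolases and activators 3 fell and none rose. Dnase2a, the acid DNase that digests engulfed DNA, had the largest difference of all lysosomal genes examined. It stood at -0.80, -0.95, -0.61, -1.06 and -0.74 in HFD, against 1.43, 0.61, 1.51 and 1.18 in control. All HFD arrays were below 0 and all control arrays above, and Dnase2a fell by 2.02 ± 0.18 (4.05-fold, adjusted p = 2.74e-04). Over the HFD arrays Dnase2a was lowest on replicate 4 and highest on replicate 3. Scpep1 and Cd68 were highest on HFD replicate 4 and lowest on HFD replicate 5. The mean of the Kupffer cell markers and the mean over all genes had the same 2 arrays at their extremes. Dpp7 was highest on HFD replicate 2 and lowest on HFD replicate 5. The part of Kupffer cells in these values was not tested. Scpep1, a serine carboxypeptidase, fell by 0.96 ± 0.16 (adjusted p = 0.00790), and Dpp7, a dipeptidyl peptidase, by 0.61 ± 0.15 (adjusted p = 0.0441). Dnase2a and Scpep1 passed in every alternative run, and Dpp7 did not without any 1 control array or HFD replicate 1, 2 or 3 (highest adjusted p = 0.116).

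In the proton pump, Tcirg1, another subunit of the membrane sector, was the 1 of 13 further subunit genes that passed, and it fell. It stood at 0.01, -0.01, -0.06, -0.01 and -0.23 in HFD, against 0.62, 0.45, 0.42 and 0.48 in control. The HFD arrays lay near or below 0 and the controls well above, a fall of 0.55 ± 0.08 (adjusted p = 0.00533) that held in all 17 alternatives. Of 20 further membrane proteins Cd68, a macrophage sialomucin, fell by 1.43 ± 0.33 (adjusted p = 0.0318), with overlapping groups. It did not pass without control replicate 1, 2 or 3, without HFD replicate 1, 2 or 3, or when HFD replicate 5 and control replicate 1 were both left out (highest adjusted p = 0.101).

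Of 18 genes that sort enzymes to lysosomes Sort1, the sorting receptor sortilin, fell by 0.70 ± 0.11 (adjusted p = 0.00583), in all 17 alternatives, though by 0.32 with its 3 probe sets averaged. Of 15 genes of nutrient sensing at the lysosome Fnip1, a partner of folliculin, rose by 0.72 ± 0.12 (adjusted p = 0.00757). With its 3 probe sets averaged the difference was 0.32 and did not pass (adjusted p = 0.146). Of 16 autophagy genes Atg5, which is needed to form autophagosomes, rose by 0.65 ± 0.16 (adjusted p = 0.0417), a call that ended without any 1 control array, without HFD replicate 2 or 3, and when HFD replicate 5 and control replicate 1 were both left out (highest adjusted p = 0.118).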

How the data were processed

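Biotin-labelled liver RNA was hybridised to Affymetrix arrays, 5 labelled HFD and 4 labelled control. Replicate numbers follow the accession order and pair no arrays, and the labels give no batch. The deposited values, read as log2 because RMA gives log2 (the base is not stated), were made by the authors with RMA, quantile normalization and a baseline at the median of all samples, per the series' design text. After 60 control probe sets were left out, 41782 remained, of which the platform annotation paired 32801 with 1 symbol, 862 with several and 8119 with none. For each of 17514 genes the probe set with the largest SD over all 9 arrays was used, a choice that favours larger differences. No filter on low signal was possible. The groups were compared with limma (version 3.58.1, in R 4.3.3) by lmFit and eBayes, two-sided, with Benjamini-Hochberg adjustment over all genes.

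The members and lists were chosen with earlier results of these data known, so that no set test and no p over a list is given. By rule, values on every array are given for members that passed and for the 2 others of lowest p in each role, and up to 3 genes of lowest p are named from other lists. In 20 simulations of HFD against control with 200 of 17514 genes changed, 40.5% of changes of 0.5 on the log2 scale, 84.3% of changes of 1 and 98.4% of changes of 2 were recovered, and 5.45% of calls were false. The simulated noise was drawn independently for each gene. These rates therefore do not cover shifts that many genes share on an array. They also hold for normal noise and 200 changed genes, while 917 genes were called in the data. Promoters came from RefSeq and were searched for the core of 6 bases given in the text and for a motif of 10 bases that holds it. Alternatives were other scalings, probe set choices, filters, variance models, array weights, a stricter threshold and left-out arrays.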

Additional observations from a re-analysis of the deposited data

Results flagged for a closer look

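In 96 groups of values (48 lysosomal genes in HFD and in control) an array was sought that stood apart from the rest of its group by Dixon's test, which chance meets in about 1 of 20 groups. It was met in 3 groups, all of control arrays. Ctsl stood at 1.09 on control array 3, and the other control arrays between -0.01 and 0.12. Ppt1 stood at -0.37 on control array 4, and the others between -0.02 and 0.04. Acp5 stood at -0.26 on control array 4, and the others between -0.03 and 0.00.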

How the results depend on the processing

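The count of lysosomal genes past the threshold was small and moved with single arrays. With 1 array left out, the 1 higher gene became 0 to 2 (0 without control replicate 2, 3 or 4 or HFD replicate 3, 2 without HFD replicate 1) and the 3 lower genes 1 to 6 (1 without control replicate 1, 2 or 3 or HFD replicate 3, 6 without HFD replicate 4). The higher count was 2 after a further quantile normalization, with the least variable genes left out, and with every probe set tested on its own. At an adjusted p under 0.01 the counts were 0 higher and 1 lower, and with HFD replicate 5 and control replicate 1 both left out they were 0 and 1, with a median difference over the members of 0.08. The lower count was 5 under array weights. Over all genes, the 590 higher genes became 262 to 589 with 1 array left out and 166 at an adjusted p under 0.01. The 327 lower genes became 123 to 407 and 79. The higher count fell the most without control replicate 2, 3 or 4 or HFD replicate 3, and the lower count without control replicate 1, 2 or 3 or HFD replicate 3. Of 809 values of the 48 genes under these settings 750 kept sign and side of the threshold, 23 lost and 12 gained a call, and 24 values of 13 genes changed sign, none of them from a gene past the threshold. No paired analysis was possible because the replicate numbers come from the accession order only.

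Signs changed mostly with the probe set. Of 56 other probe sets 26 had the opposite sign, in 18 genes. Above 0 were single probe sets of Ctsa (0.041), Ctsb (0.22 and 0.10), Ctse (0.16), Ctsf (0.034), Ctso (0.36), Ctsz (0.058), Gla (0.030), Psap (0.049), Lamp2 (0.077 and 0.025), Mcoln1 (0.048 and 0.16) and Laptm5 (0.25). Below 0 were those of Tpp1 (-0.064), Gaa (-0.11), Ids (-0.15, -0.055 and -0.0076), Lipa (-0.072), Ppt1 (-0.080, -0.018 and -0.26), Acp2 (-0.26 and -0.11), Atp6v1a (-0.036) and, outside the members, Fnip1 (-0.14). With the less specific probe sets (_s_at and _x_at) left out, the differences were 0.16 for Ctse, -0.11 for Gaa and 0.25 for Laptm5. Gaa was at -0.13 after a further quantile normalization and at -0.013 with probe sets averaged, where Mcoln1 was at 0.014, and Ctsf was at 0.014 under array weights. With HFD replicate 5 and control replicate 1 both left out, Ctsb was at 0.065, Ctsf at 0.14, Ctsz at 0.077, Psap at 0.087, Atp6ap1 at 0.040 and Lamp2 at 0.024. With 1 array left out, the difference ran from -0.20 to 0.082 for Ctsf, -0.13 to 0.041 for Ctsz, -0.065 to 0.16 for Neu1, -0.017 to 0.18 for Atp6v1a, -0.069 to 0.0041 for Atp6ap1, -0.34 to 0.019 for Lamp2 and -0.17 to 0.023 for Tfe3. The cause was not tested.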

Other observations

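Other marker lists were measured on the same arrays. Cidec, a lipid droplet protein of adipocytes and fatty hepatocytes, rose by 2.25 ± 0.38 in HFD (adjusted p = 0.00934 by limma) and passed in all 17 alternatives, the 1 of 6 adipocyte markers that did. All 12 sinusoidal endothelial markers lay below 0, with a median difference of -0.93, and 11 had an unadjusted p under 0.05. After adjustment 3 fell and none rose. The mean over this list ran from -1.17 to 0.20 in HFD and from 0.16 to 0.69 in control. The count of 3 was 0 without any 1 control array or HFD replicate 3, 1 without HFD replicate 2 or 5, 5 without HFD replicate 1, 9 without HFD replicate 4, and 0 with HFD replicate 5 and control replicate 1 both left out.

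Of 8 neutrophil markers 1 fell, S100a9 (-1.97 ± 0.45), and 4 were lower at an unadjusted p under 0.05. The 1 call became 0 without any 1 control array or HFD replicate 2 or 3, and 2 without HFD replicate 1 or 4. Of 10 hepatocyte markers 1 fell, Hnf4a (-0.91 ± 0.19), and 4 were lower at an unadjusted p under 0.05. That call became 0 without control replicate 2, 3 or 4 or HFD replicate 3. Of 10 stellate cell markers 2 rose, Rgs5 (1.87 ± 0.26) and Lrat (0.71 ± 0.17), and 1 fell, Reln (-0.53 ± 0.13). Rgs5 passed in all 17 alternatives (highest adjusted p = 0.0204 by limma), with differences between 0.81 and 2.02. At an unadjusted p under 0.05 the counts of stellate cell markers were 2 higher and 3 lower. Without HFD replicate 5 or any 1 control array 1 rose and none fell, and the same counts held without HFD replicate 2 or 3. Without HFD replicate 1 the counts were 2 higher and 0 lower, and without HFD replicate 4 they were 1 higher and 3 lower. None of 8 markers of infiltrating monocytes and lipid-associated macrophages, 6 of dendritic cells, 9 of lymphocytes and 4 of cholangiocytes passed in limma, and without HFD replicate 4 the monocyte list had 1 lower. At an unadjusted p under 0.05 the counts were 1 for the monocyte list and 1 for the lymphocyte list, and 0 for the dendritic cell and cholangiocyte lists. Over all genes 5.24% passed and 19.1% reached an unadjusted p under 0.05.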
